A study of Homo sapiens with 4 samples.

Results

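Interferon-stimulated genes are the genes that cells switch on when an interferon reaches them, and 38 of them were followed here through each of 4 RNA sequencing libraries. The genes were named by symbol, and for each symbol the row of the deposited count table with the most reads was used. All 38 symbols had a row among 78932 Ensembl gene rows, and all 38 passed the filter on low counts that left 19511 genes for testing. The cells were RPMI-8226, an established human multiple myeloma line that the labels spell RPMI82266. The libraries labelled CELF2 LNA ASO came from cells given 5 nM of an antisense oligonucleotide against CELF2, built with locked nucleic acid units that strengthen its pairing to the RNA it matches (LNA ASO). The libraries labelled Control LNA ASO came from cells given a control LNA ASO, for which no dose is given in the sources used here. Each group had 2 libraries from cells at 72 h, and both groups carried an oligonucleotide, so no untreated cells were compared. The labels number the libraries 1 and 2 without saying whether that number stands for a replicate culture or for a different oligonucleotide, and it is written below as a replicate number. Separate cultures are not stated, so the p-values reflect the scatter of these 4 libraries, part of which may be technical. CELF2 encodes an RNA-binding protein that acts in splicing and mRNA stability.

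Interferons are secreted proteins that cells release on sensing foreign or misplaced nucleic acid. Type I interferons bind the receptor subunits IFNAR1 and IFNAR2, whose kinases JAK1 and TYK2 activate transcription factors of the STAT family. STAT2 joins IRF9 in a complex that binds the interferon-stimulated response element in promoters of antiviral genes. Interferon alpha has been used as a drug in multiple myeloma, and the stimulated genes mainly encode proteins that block steps of virus growth or tune the pathway itself.

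Total counts were 23599190 and 26061900 in CELF2 ASO replicates 2 and 1, and 24493148 and 29161298 in control replicates 2 and 1. Levels are read counts scaled to a common library size by the trimmed mean of M-values method (TMM) and given as CPM, and log2 differences between single libraries were taken on log2(CPM + 0.5). CELF2 itself (ENSG00000048740) had 48.8 and 56.6 CPM in CELF2 ASO replicates 2 and 1, against 128 and 128 CPM in control replicates 2 and 1. CELF2 fell by 1.28 on the log2 scale, standard error 0.09 (edgeR quasi-likelihood test, Benjamini-Hochberg adjusted p = 2.88e-05). The biological coefficient of variation was 13.7% within the CELF2 ASO pair and 3.58% within the control pair.

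All 38 interferon-stimulated genes were higher in CELF2 ASO replicate 2 than in CELF2 ASO replicate 1, a direction that 49.5% of all tested genes shared. The median log2 difference was 1.26, against -0.0037 over all 19511 tested genes, and it ran between 0.27 for IRF9 and 2.10 for RSAD2. A difference of at least 2-fold was found in 30 of the 38 genes, while 0.579% of all tested genes (113) were that much higher in replicate 2. None of the 38 was at least 2-fold lower, a difference found in 0.328% of tested genes. SAMD9L at a log2 difference of 1.00 and XAF1 at 1.00 lay just inside the 2-fold line, and CXCL10 at 0.90 and IFIT5 at 0.89 lay just outside it. On plain CPM without the added 0.5, CXCL10 had 2.05 times the level in replicate 2 that it had in replicate 1. The largest spreads among the 38 were those of RSAD2, IFI6 and DDX60, which had 4.56, 4.19 and 3.98 times the CPM in replicate 2 that they had in replicate 1. Their exact 95% intervals, which cover counting error only, ran between 3.84 and 5.45 for RSAD2, 4.01 and 4.38 for IFI6, and 3.59 and 4.42 for DDX60. Each of these comparisons sets 1 library against 1 and has no replicate check. Of the 113 genes at least 2-fold higher in replicate 2, 30 (26.5%) were among the 38, 56 were among the 38 or a list of further interferon-stimulated genes, and 57 were in neither.

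**Figure D1:**
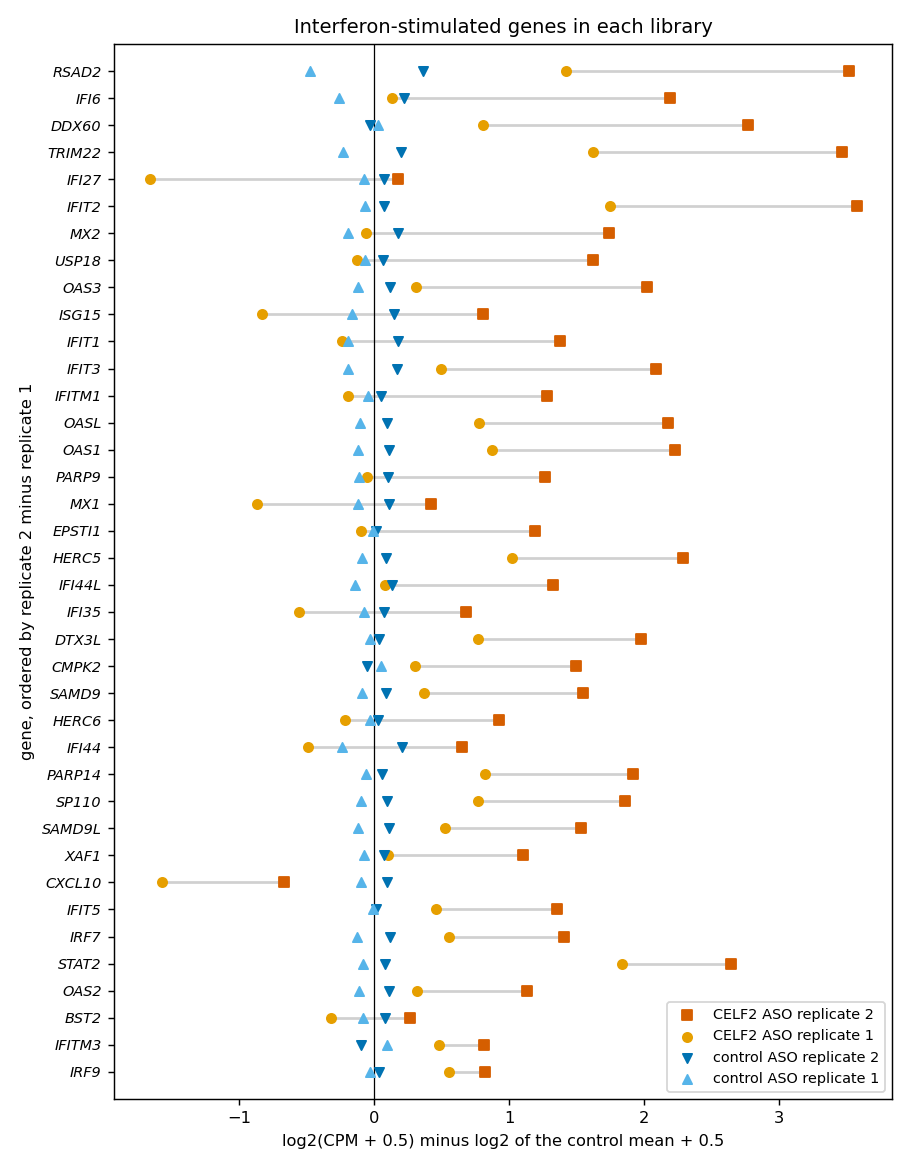
Level of each of the 38 genes in every library, as log2(CPM + 0.5) minus the log2 of the control mean + 0.5. Squares are CELF2 ASO replicate 2, circles CELF2 ASO replicate 1, downward triangles control replicate 2 and upward triangles control replicate 1; grey lines join the CELF2 ASO libraries. Every square lies to the right of its circle, while circles lie on both sides of the control level.

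The controls showed a smaller difference in the direction of the same replicate numbers. In control replicate 2, 35 of the 38 genes were higher than in control replicate 1, against 52% of all tested genes, with a median log2 difference of 0.19 and none 2-fold apart on log2(CPM + 0.5), where RSAD2, at 2.11 times by plain CPM, came nearest (0.0308% of tested genes were at least 2-fold higher and 0.0359% at least 2-fold lower). The mitochondrial ribosomal RNA genes MT-RNR1 and MT-RNR2 ran the other way in both pairs. MT-RNR1 had 26 and 313 CPM in CELF2 ASO replicates 2 and 1, against 6.48 and 45.7 CPM in control replicates 2 and 1. MT-RNR2 had 34.4 and 392 CPM in CELF2 ASO replicates 2 and 1, against 10.4 and 53.1 CPM in control replicates 2 and 1. Their part in the difference of the interferon-stimulated genes was not tested.

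**Figure D2:**
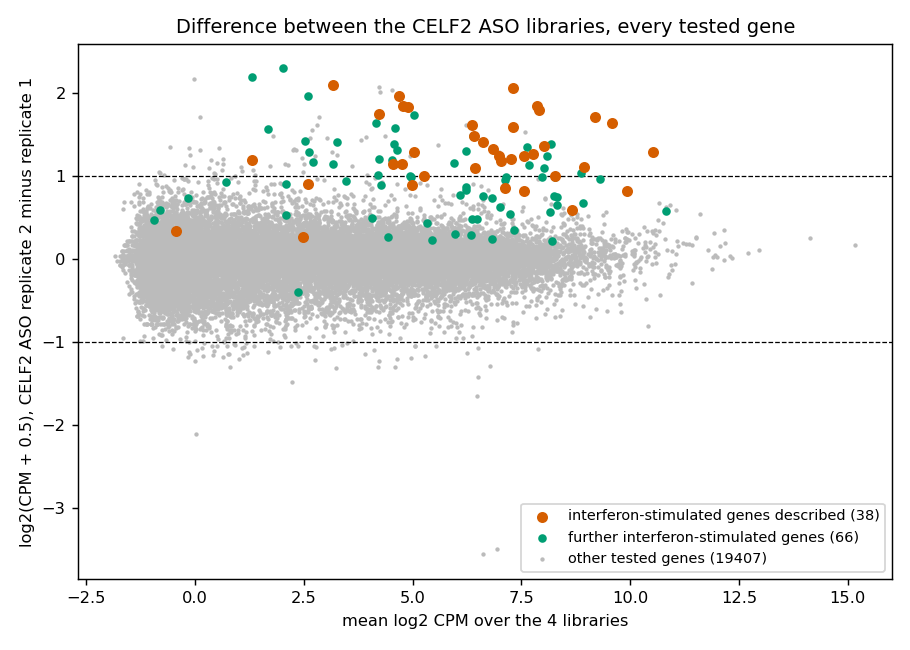
Log2 difference between CELF2 ASO replicate 2 and replicate 1 for every tested gene against its mean log2 CPM, with the 38 genes in orange, 66 further interferon-stimulated genes in green and dashed lines at 2-fold. The 38 genes lie between 0.27 and 2.10, whereas all tested genes centre near 0.

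The group test called few of the 38 genes, and each CELF2 ASO library gave a different picture against the same 2 controls. Across both CELF2 ASO libraries, 3 genes rose (STAT2, IRF9 and IFITM3) and 1 fell (CXCL10) (edgeR adjusted p below the threshold of 0.05). Of all tested genes, 27.5% rose and 27.9% fell. IFITM3 passed the filter on low counts only with the help of the CELF2 ASO libraries, so its call says little. At an unadjusted p below 0.05, 11 of the 38 passed, against 61.1% of all tested genes. The number that rose depended on the settings. It was 20 without robust estimation and 18 with library totals alone, where 27.6% and 32.3% of all tested genes rose. By DESeq2 it was 14 and by limma-voom 3, against 20.5% and 27.3% of all tested genes. The median log2 fold change of the 38 was 1.48 without CELF2 ASO replicate 1 and 0.33 without CELF2 ASO replicate 2. Without control replicate 1 this median was 0.94, and without control replicate 2 it was 1.11. Both CELF2 ASO libraries lay above both controls for 22 of the 38 genes, against 41.2% of tested genes, and below both for CXCL10 alone, against 38.4%.

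CELF2 ASO replicate 2 lay above both control libraries for 37 of the 38 genes (47.1% of tested genes), and 28 were at least 2-fold above the control mean (9.74% of tested genes), with a median log2 difference of 1.45. It was above the control mean for the same 37 (51.3% of tested genes) and at least 2-fold below it for none (9.89%). CELF2 ASO replicate 1 lay above both controls for 22 genes (47.4% of tested genes), between them for 4 (IFI6, MX2, PARP9 and IFI44L) and below both for 12 (43.8% of tested genes), with a median log2 difference of 0.31 against the control mean. In replicate 1, RSAD2, TRIM22, IFIT2, HERC5 and STAT2 were at least 2-fold above the control mean (5 of 38, against 8.56% of tested genes), and IFI27 and CXCL10 were at least 2-fold below it (2 of 38, against 8.05%). Both sets of differences share the control libraries. When a single CELF2 ASO library was tested against both controls in edgeR, assuming that it varied like them, 37 genes were higher and 1 lower in replicate 2 (29.7% and 29.6% of 20560 genes), and 16 were higher and 6 lower in replicate 1 (27.7% and 29.8% of 20873 genes). That assumption sets a spread narrower than the one the CELF2 ASO pair showed. RNA from a whole culture cannot tell a response in fewer cells apart from less RNA per cell.

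Promoter windows from RefSeq (GRCh38.p14, 250 bases before to 50 after a transcript start) were found for 31 of the 38 genes and searched on both strands for GAAANNGAAA, the core of the interferon-stimulated response element. The letters occurred in windows of 22 of the 31 genes (71%), against 1195 of 27305 genes with a window (4.38%) and 1255 of 35116 windows (3.57%). At least 2 matches in a window were found in 13 of the 31 (41.9%), against 85 of 27305 genes (0.311%). In 28 of the 42 windows of the 31 genes, the last 35 bases were found in a transcript of the gene, so not every start is certain. The stretches below show the 3 genes with the widest spread between the CELF2 ASO libraries (RSAD2, IFI6, DDX60), 3 genes that were below both controls in replicate 1 and above both in replicate 2 (IFI27, ISG15, IFIT1), the gene with a match and nearly level groups (BST2) and the gene that fell (CXCL10). They are written 5′ to 3′ on the strand of the gene, with each match in capitals, as GAAANNGAAA or its reverse complement TTTCNNTTTC.
RSAD2 (chr2:6877622-6877651, plus strand): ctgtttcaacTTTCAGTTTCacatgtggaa
IFI6 (chr1:27672266-27672358, minus strand): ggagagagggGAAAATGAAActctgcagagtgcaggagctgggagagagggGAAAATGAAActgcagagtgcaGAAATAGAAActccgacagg
DDX60 (chr4:168318786-168318850, minus strand): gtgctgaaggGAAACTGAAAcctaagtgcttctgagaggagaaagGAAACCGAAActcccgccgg
IFI27 (chr14:94110618-94110660, plus strand): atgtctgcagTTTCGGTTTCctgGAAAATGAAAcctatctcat
ISG15 (chr1:1013374-1013409, plus strand): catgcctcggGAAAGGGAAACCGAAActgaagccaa
IFIT1 (chr10:89392497-89392539, plus strand): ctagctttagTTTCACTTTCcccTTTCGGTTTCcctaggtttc
BST2 (chr19:17405735-17405770, minus strand): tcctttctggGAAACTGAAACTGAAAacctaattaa
CXCL10 (chr4:76023699-76023728, minus strand): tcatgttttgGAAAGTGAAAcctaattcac

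IFI6 held 3 matches, 2 of them in a repeated stretch of the same letters. In ISG15 and BST2 the 2 matches overlap and share a GAAA. The RSAD2 match begins at position -145 and the CXCL10 match at position -221, counted in bases from the start. A match describes letters only, and it does not show that a protein binds there. A second pattern, TTCNNNGAA, the core bound by STAT dimers, occurred in windows of 11 of the 31 genes (35.5%), against 9.38% of genes with a window, and a stretch can match both patterns.

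Most of the 31 genes with a window stood at least 2-fold apart between the CELF2 ASO libraries, with and without a match, but the widest differences were in genes with one. Of the 22 genes with a match, 18 (81.8%) were at least 2-fold higher in replicate 2, with a median log2 difference of 1.29. Of the 9 genes with a window and no match, 7 (77.8%) were, with a median of 1.09. The log2 difference reached 2.10 among genes with a match (RSAD2) and 1.36 among those without (OAS1), and the 9 genes with a window above OAS1 all had a match. Among the other tested genes, 5 of 36 with 2 or more matches (13.9%), 17 of 405 with 1 match (4.2%) and 26 of 10947 with none (0.238%) were at least 2-fold higher in replicate 2. Their median log2 differences were 0.15 with 2 or more matches, 0.08 with 1 and -0.0022 with none. These other genes included further interferon-stimulated genes. The largest log2 differences were those of GBP1 among genes with 1 match (2.30) and DDX60L among those with 2 or more (1.31). STAT2 and IRF9, which both rose, were among the genes with no match.

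**Figure D3:**
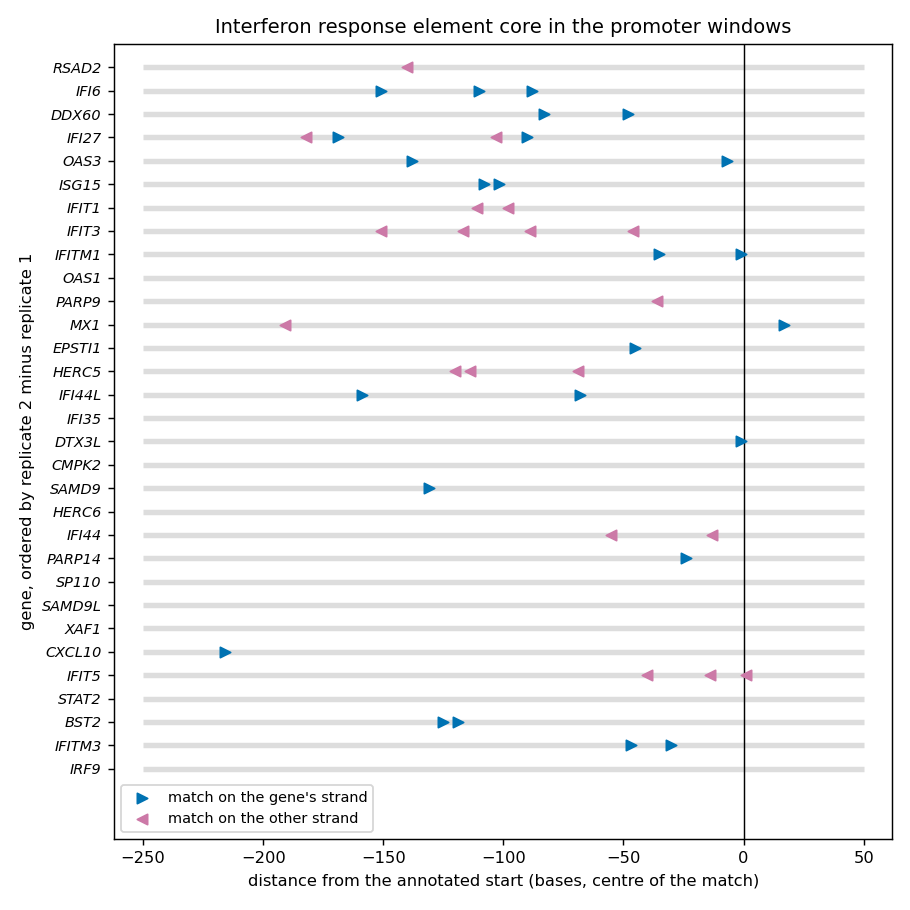
Distance of the centre of each GAAANNGAAA match from the annotated start, in bases, for the 31 genes with a promoter window (grey bars), ordered by the difference between the CELF2 ASO libraries. Arrows point right for a match on the gene's strand and left for one on the other strand, windows of 1 gene are drawn on 1 line, and 42 of the 44 matches over all windows begin within 200 bases before a start. Windows of a gene can overlap, so a match can be drawn and counted more than once, as may hold for IFI27.

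**Figure D4:**
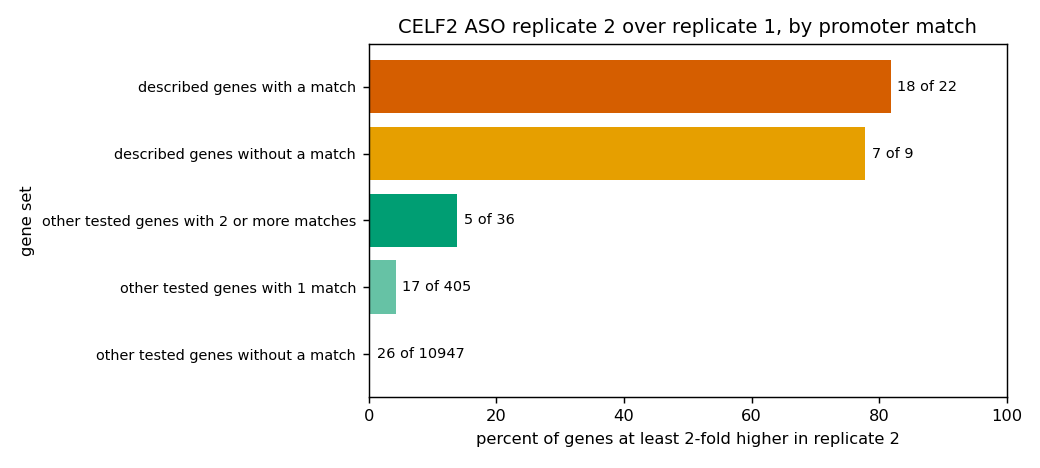
Percent of genes at least 2-fold higher in CELF2 ASO replicate 2 than in replicate 1, by promoter match, with the number of genes beside each bar. The bars stand at 81.8% and 77.8% for the 22 and 9 of the 31 genes with a window that have and lack a match, and at 13.9%, 4.2% and 0.238% for other tested genes with 2 or more, 1 and no match. The other tested genes include further interferon-stimulated genes.

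Among the transcription factors of the 38, STAT2 stood furthest from the controls and IRF9 differed least between the CELF2 ASO libraries. STAT2 (ENSG00000170581, chromosome 12, 56341597 to 56360155), which carries the activation domain of the interferon complex, had 400.3 and 228 CPM in CELF2 ASO replicates 2 and 1, against 67.1 and 60.1 CPM in control replicates 2 and 1. Both CELF2 ASO libraries lay above both controls, at 314 ± 122 CPM against 63.6 ± 4.97 CPM (SD, n = 2 each). STAT2 rose by 2.30 on the log2 scale (standard error 0.32, edgeR adjusted p = 0.00674), although it did not pass with no filter on low counts (edgeR adjusted p = 0.13). IRF9, its DNA-binding partner, had 7.58 and 6.20 CPM in CELF2 ASO replicates 2 and 1, against 4.18 and 3.97 CPM in control replicates 2 and 1. The groups did not overlap, and IRF9 rose by 0.76 (standard error 0.17, edgeR adjusted p = 0.00697). Its ratio between CELF2 ASO replicates 2 and 1 was 1.22 with an exact interval between 0.986 and 1.51, and 48.4% of its exon bases are shared with an overlapping annotated gene, so its counts are uncertain. IRF7, the factor that amplifies interferon gene transcription, had 241 and 133 CPM in CELF2 ASO replicates 2 and 1, against 98.5 and 83.2 CPM in control replicates 2 and 1. Its groups did not overlap, but it missed the threshold at a log2 fold change of 1.04 (standard error 0.34, edgeR adjusted p = 0.0727).

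The genes for RNA-binding antiviral effectors were all higher in CELF2 ASO replicate 2, and most were above the controls in replicate 1 as well. The OAS enzymes make oligoadenylates that activate RNase L, and their relative OASL lacks that activity and aids RNA sensing. OAS3 had 1303 and 399 CPM in CELF2 ASO replicates 2 and 1, against 348 and 295 CPM in control replicates 2 and 1. OAS1 had 573 and 223 CPM in CELF2 ASO replicates 2 and 1, against 131 and 112 CPM in control replicates 2 and 1. In each of OAS1, OAS2, OAS3 and OASL both CELF2 ASO libraries were above both controls, and none of the 4 passed the test (log2 fold changes of 1.71, 0.78, 1.40 and 1.65, edgeR adjusted p of 0.0937, 0.108, 0.195 and 0.107). OAS2 differed least between the CELF2 ASO libraries, with 1.76 times the CPM in replicate 2 that it had in replicate 1.

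IFIT proteins bind viral RNA and translation factors, and the 4 IFIT genes split in replicate 1. IFIT2 had 83.2 and 23.0 CPM in CELF2 ASO replicates 2 and 1, against 6.86 and 6.18 CPM in control replicates 2 and 1. Replicate 2 was therefore at 12.8 times and replicate 1 at 3.53 times the control mean, with a log2 fold change of 3.02 (standard error 0.85, edgeR adjusted p = 0.0646). IFIT1, which recognises RNA lacking cap methylation, had 159 and 51.5 CPM in CELF2 ASO replicates 2 and 1, against 68.7 and 53.1 CPM in control replicates 2 and 1. Here replicate 1 lay just under both controls and replicate 2 well above them. IFIT3, a partner of IFIT1, had 351 and 116 CPM in CELF2 ASO replicates 2 and 1, against 92.5 and 71.8 CPM in control replicates 2 and 1. IFIT5 had 54.6 and 29.1 CPM in CELF2 ASO replicates 2 and 1, against 21.2 and 20.9 CPM in control replicates 2 and 1. For both of these genes all CELF2 ASO values exceeded all control values. DDX60, a helicase that promotes RIG-I signalling, had 67.5 and 17.0 CPM in CELF2 ASO replicates 2 and 1, against 9.29 and 9.72 CPM in control replicates 2 and 1, also without overlap.

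The MX genes encode dynamin-like GTPases that trap viral components, and they were among the genes whose replicate 1 level did not exceed the controls. MX1 had 2016 and 825 CPM in CELF2 ASO replicates 2 and 1, against 1628 and 1385 CPM in control replicates 2 and 1. Replicate 1 was below both controls and replicate 2 above both, so the control mean was 1.83 times the replicate 1 level and the log2 fold change was -0.08 (standard error 0.53, edgeR adjusted p = 0.912), a sign that depended on the setting. MX2, which restricts HIV, had 506 and 145 CPM in CELF2 ASO replicates 2 and 1, against 171 and 132 CPM in control replicates 2 and 1, with replicate 1 between the controls.

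The ISG15 system tags proteins with a ubiquitin-like modifier. ISG15, the modifier itself, had 1250.0 and 400.3 CPM in CELF2 ASO replicates 2 and 1, against 789.6 and 638 CPM in control replicates 2 and 1. The 2 CELF2 ASO libraries lay on opposite sides of both controls, at 1.75 and 0.561 times the control mean, and the log2 fold change of 0.21 (standard error 0.67, edgeR adjusted p = 0.821) changed sign with the setting. HERC5, the main ligase that attaches ISG15, had 476 and 198 CPM in CELF2 ASO replicates 2 and 1, against 104 and 91.2 CPM in control replicates 2 and 1. Both of its CELF2 ASO libraries were at least 2-fold above the control mean (log2 fold change 1.79, standard error 0.54, edgeR adjusted p = 0.0742). USP18, which removes ISG15 and dampens signalling at IFNAR2, had 39.0 and 11.2 CPM in CELF2 ASO replicates 2 and 1, against 13.0 and 11.8 CPM in control replicates 2 and 1. HERC6, the ISG15 ligase of mice, had 37.9 and 16.8 CPM in CELF2 ASO replicates 2 and 1, against 20.1 and 19.3 CPM in control replicates 2 and 1. Both USP18 and HERC6 lay just below the controls in replicate 1 and above them in replicate 2.

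Genes for membrane-bound restriction factors included the smallest group difference, that of BST2. IFITM proteins block fusion of viral envelopes, and IFITM1 had 155 and 55.5 CPM in CELF2 ASO replicates 2 and 1, against 66 and 61.6 CPM in control replicates 2 and 1. IFITM3 had 26 and 21 counts in CELF2 ASO replicates 2 and 1, against 8 and 13 counts in control replicates 2 and 1. Control replicate 2 lay under the filter's minimum count of 10. IFITM3 was thus kept only with the help of the CELF2 ASO libraries, where it was higher, and its call says little. The groups did not overlap and IFITM3 rose by 1.16 (standard error 0.38, edgeR adjusted p = 0.0328), but it did not pass without CELF2 ASO replicate 2 (edgeR adjusted p = 0.154), without control replicate 1 (0.0505), without control replicate 2 (0.145) or by DESeq2 (adjusted p = 0.169). Exon bases shared with neighbouring genes made up 32.5% of IFITM1 and 21.3% of IFITM3, and IFITM genes are near copies of each other, so both are uncertain. BST2 (tetherin), which holds budding virus at the cell surface, had 484 and 322 CPM in CELF2 ASO replicates 2 and 1, against 425 and 379 CPM in control replicates 2 and 1. Its CELF2 ASO libraries lay above and below both controls, with a log2 fold change of 0.0043 (standard error 0.20, edgeR adjusted p = 0.991) whose sign changed with the setting.

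RSAD2 and CMPK2 act on nucleotides, RSAD2 (viperin) by making a chain-terminating one and CMPK2 as a mitochondrial nucleotide kinase. RSAD2 (ENSG00000134321, chromosome 2, 6865806 to 6898239) had 26.8 and 5.88 CPM in CELF2 ASO replicates 2 and 1, against 2.56 and 1.21 CPM in control replicates 2 and 1. Both CELF2 ASO libraries exceeded both controls, at 14.2 and 3.12 times the control mean, and the log2 fold change was 3.13 (standard error 1.11, edgeR adjusted p = 0.104). Control replicate 2 itself had 2.11 times the CPM of control replicate 1, on 60 and 34 counts. CMPK2 had 4.94 and 1.87 CPM in CELF2 ASO replicates 2 and 1, against 1.36 and 1.5 CPM in control replicates 2 and 1.

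The ADP-ribosylation genes lay well above the controls in replicate 2. PARP14, a mono-ADP-ribosyltransferase, had 982 and 457 CPM in CELF2 ASO replicates 2 and 1, against 269.8 and 248 CPM in control replicates 2 and 1. PARP9 and DTX3L encode partners in a ubiquitin ligase complex and start from opposite strands. The first bases of these genes lie 339 bases apart, and the gene bodies overlap. DTX3L had 316 and 136 CPM in CELF2 ASO replicates 2 and 1, against 81.8 and 78.0 CPM in control replicates 2 and 1. PARP9 had 207 and 82.7 CPM in CELF2 ASO replicates 2 and 1, against 92.4 and 79.4 CPM in control replicates 2 and 1. The pair differed alike between the CELF2 ASO libraries, by log2 differences of 1.21 for DTX3L and 1.32 for PARP9, but in replicate 1 DTX3L was above both controls and PARP9 between them.

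Of the growth and cell-death related genes, TRIM22, a ubiquitin ligase of the tripartite motif family, had 76.4 and 20.9 CPM in CELF2 ASO replicates 2 and 1, against 7.5 and 5.43 CPM in control replicates 2 and 1. That is 11.8 and 3.24 times the control mean, with a log2 fold change of 2.91 (standard error 0.87, edgeR adjusted p = 0.0728), and 10.7% of its exon bases are shared with OR56B1. Shared exon bases also made up 38.3% of XAF1, 20.9% of SP110 and 10.3% of IFIT2, and with the strand setting of the counting unknown the reads of such pairs cannot be told apart. SAMD9L and SAMD9, neighbouring genes for inhibitors of translation in virus-infected cells, had 563 and 244 CPM in CELF2 ASO replicate 2 and 281 and 108 CPM in replicate 1. In the controls SAMD9L had 210.0 and 179.5 CPM and SAMD9 had 88.7 and 78.1 CPM in replicates 2 and 1. SP110, a nuclear body protein, had 171 and 80.1 CPM in CELF2 ASO replicates 2 and 1, against 50.0 and 43.7 CPM in control replicates 2 and 1. For these genes the groups did not overlap. XAF1, which antagonises an inhibitor of apoptosis, barely exceeded the controls in replicate 1, with 63.9 and 31.7 CPM in CELF2 ASO replicates 2 and 1, against 31.0 and 27.9 CPM in control replicates 2 and 1.

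EPSTI1 and the IFI genes, the latter named for their induction, stood far apart between the CELF2 ASO libraries. Their levels in replicate 1 ranged on both sides of the controls. IFI6, a small membrane protein that limits apoptosis, had 380.4 and 90.7 CPM in CELF2 ASO replicates 2 and 1, against 96.7 and 68.9 CPM in control replicates 2 and 1. IFI27, a small membrane protein of the same family, had 303 and 84.5 CPM in CELF2 ASO replicates 2 and 1, against 283 and 255 CPM in control replicates 2 and 1. So IFI6 matched the controls in replicate 1 and stood 4.59 times above their mean in replicate 2, whereas IFI27 was near the controls in replicate 2 and the control mean was 3.18 times its level in replicate 1. IFI35, which pairs with NMI, had 285 and 120.4 CPM in CELF2 ASO replicates 2 and 1, against 187 and 168 CPM in control replicates 2 and 1. IFI44 had 39.7 and 17.7 CPM in CELF2 ASO replicates 2 and 1, against 29.1 and 21.2 CPM in control replicates 2 and 1. IFI44L and EPSTI1 had 228 and 57.3 CPM in CELF2 ASO replicate 2 and 96.0 and 23.2 CPM in replicate 1. In control replicate 2 they had 99.6 and 25.1 CPM, and in control replicate 1 they had 82.0 and 24.6 CPM. IFI35, IFI44 and EPSTI1 were below both controls in replicate 1 and above both in replicate 2.

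CXCL10, a chemokine that draws T cells through the receptor CXCR3, was the one gene of the 38 that fell. It had 5.02 and 2.45 CPM in CELF2 ASO replicates 2 and 1, against 8.86 and 7.72 CPM in control replicates 2 and 1. Both CELF2 ASO libraries lay below both controls, with a log2 fold change of -1.16 (standard error 0.30, edgeR adjusted p = 0.0137). The exact interval of its ratio of 2.05 between CELF2 ASO replicates 2 and 1 ran between 1.51 and 2.80.

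Of the 38 genes, 21 lie in 9 clusters in which neighbours are no more than 100000 bases apart (GENCODE 29, GRCh38), and neighbours often differed in replicate 1. In the cluster on chromosome 10, 89283694 to 89421001, the log2 differences between CELF2 ASO replicate 1 and the control mean were 1.75 for IFIT2, 0.50 for IFIT3, -0.24 for IFIT1 and 0.46 for IFIT5. Those between CELF2 ASO replicate 2 and the control mean were 3.58, 2.09, 1.37 and 1.35. On chromosome 4, the log2 differences of HERC5 and HERC6 against the control mean were 1.02 and -0.22 in replicate 1, and 2.29 and 0.93 in replicate 2. The OAS cluster on chromosome 12, 112906777 to 113011723, had log2 differences against the control mean of 0.87, 0.31 and 0.32 in replicate 1 for OAS1, OAS3 and OAS2, and of 2.23, 2.02 and 1.13 in replicate 2. In the MX cluster on chromosome 21 they were -0.87 for MX1 and -0.06 for MX2 in replicate 1, and 0.42 and 1.73 in replicate 2.

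Among genes that produce and pass on the interferon signal, most interferon genes had few or no counts and the receptor subunits and kinases were close together in the CELF2 ASO libraries. Of 22 interferon genes with a row, 10 had no count in any library, where a count of 0 allows up to 3 counts per library, and 3 had enough counts to be tested. IFNB1, which encodes interferon beta, had 30 and 17 counts in CELF2 ASO replicates 2 and 1, against 4 and 2 counts in control replicates 2 and 1. IFNB1 passed the filter on low counts only through the CELF2 ASO libraries, so a gene kept in this way had to differ, and its call says little. Its groups did not overlap and the scaled ratio was 7.81 with an exact 95% interval between 3.33 and 22.3 for counting error, with a log2 fold change of 2.92 (standard error 0.61, edgeR adjusted p = 0.005). IFNL1 and IFNG did not pass (log2 fold changes of -0.43 and -0.49, edgeR adjusted p of 0.638 and 0.267). Of 9 receptor subunits and kinases, 3 rose (JAK1, IFNGR1 and IFNAR1) and 2 fell (TYK2 and IFNLR1), near the 27.5% and 27.9% of all tested genes that rose and fell, with a median log2 difference of 0.09 between CELF2 ASO replicate 2 and replicate 1 and none 2-fold apart. JAK1 had 201 and 164 CPM in CELF2 ASO replicates 2 and 1, against 113 and 112 CPM in control replicates 2 and 1, and rose by 0.70 (standard error 0.10, edgeR adjusted p = 0.000941). IFNAR1 rose by 0.21 (standard error 0.07, edgeR adjusted p = 0.0454), but not without control replicate 1 (edgeR adjusted p = 0.339) or control replicate 2 (0.453). TYK2 fell by 0.28 (standard error 0.08, edgeR adjusted p = 0.0196), but not without control replicate 1 (edgeR adjusted p = 0.101) or control replicate 2 (0.151). IFNAR2 had 5.32 and 8.73 CPM in CELF2 ASO replicates 2 and 1, against 8.14 and 8.68 CPM in control replicates 2 and 1, and did not pass (edgeR adjusted p = 0.367).

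Of 10 pathway transcription factors besides the 38, 2 rose and 2 fell, against 27.5% and 27.9% of all tested genes. IRF1, an early interferon-induced activator, rose by 0.78 (standard error 0.10, edgeR adjusted p = 0.00054), and IRF3, the factor that sensors activate, fell by 0.38 (standard error 0.07, edgeR adjusted p = 0.00287). Of 16 tested nucleic acid sensors and adaptors, 4 rose and 3 fell, against 27.5% and 27.9% of all tested genes. AIM2, RIGI, IFIH1 and DHX58 (4 of 16, against 0.579%) were at least 2-fold higher in CELF2 ASO replicate 2 than in replicate 1. RIGI, IFIH1 and DHX58 also stand in the list of further interferon-stimulated genes, so the lists are not separate sets. TLR7, the endosomal sensor of single-stranded RNA, had 33.1 and 17.2 CPM in CELF2 ASO replicates 2 and 1, against 4.65 and 5.57 CPM in control replicates 2 and 1, and rose by 2.29 (standard error 0.37, edgeR adjusted p = 0.00547). MAVS, the adaptor of the cytosolic RNA sensors, rose by 0.51 and STING1, the adaptor of DNA sensing, fell by 0.63 (edgeR adjusted p = 0.000677 and 0.00342). Of 15 tested negative regulators and nucleases, 2 rose (SOCS1 and ISG20) and 6 fell, against 27.5% and 27.9% of all tested genes. SOCS1, a feedback inhibitor of the JAK kinases, rose by 1.45 (standard error 0.36, edgeR adjusted p = 0.0188), and PTPN6, a phosphatase, fell by 0.92 (standard error 0.11, edgeR adjusted p = 0.000278).

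A list of 68 further interferon-stimulated genes, of which 66 were tested, showed the same order of libraries at smaller size. Of these, 13 rose and 5 fell, against 27.5% and 27.9% of all tested genes. At least 2-fold higher in CELF2 ASO replicate 2 than in replicate 1 were 26, against 0.579%, with a median log2 difference of 0.94 over the list. The list's median log2 difference against the control mean was 0.99 in replicate 2 and 0.16 in replicate 1. IL15, among those that rose, had 5 and 8 counts in control replicates 2 and 1, against 20 and 13 with the CELF2 ASO. It passed the filter on low counts only through the CELF2 ASO libraries, so its call says little. SLFN5, a Schlafen family protein, had 722 and 365 CPM in CELF2 ASO replicates 2 and 1, against 83.4 and 75.1 CPM in control replicates 2 and 1. Its groups did not overlap and it rose by 2.78 (standard error 0.42, edgeR adjusted p = 0.0133). ISG20, an exonuclease that also stands in the list of negative regulators and nucleases, rose by 2.42 (standard error 0.48, edgeR adjusted p = 0.0302), but not without control replicate 1 (edgeR adjusted p = 0.312) or control replicate 2 (0.315). Of 10 tested genes of the interferon gamma list, 5 rose and 1 fell, against 27.5% and 27.9% of all tested genes. CXCL9, a chemokine for the same receptor as CXCL10, had 0.711 and 0.505 CPM in CELF2 ASO replicates 2 and 1, against 5.88 and 4.22 CPM in control replicates 2 and 1, and fell by 3.05 (standard error 0.29, edgeR adjusted p = 0.000106).

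**Figure D5:**
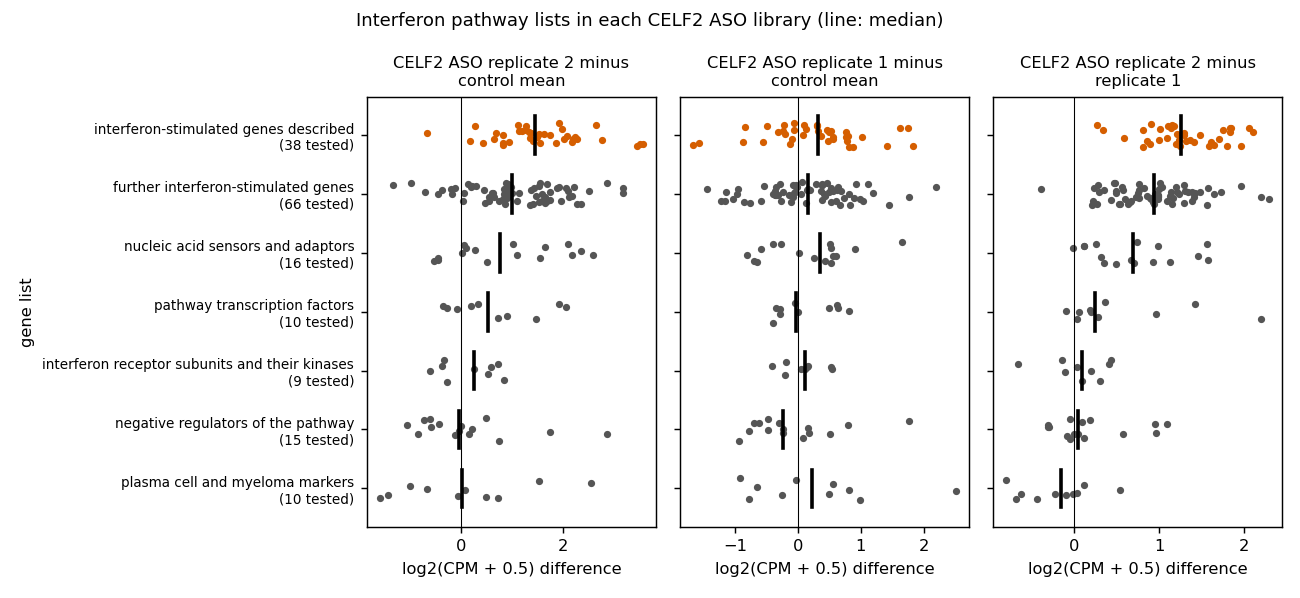
Log2(CPM + 0.5) differences of CELF2 ASO replicate 2 from the control mean (left), of CELF2 ASO replicate 1 from the control mean (middle) and of replicate 2 from replicate 1 (right) for genes of 7 lists, each point a tested gene and each bar the list median. The medians on the right are 1.26 for the 38 genes, 0.94 for further interferon-stimulated genes, 0.69 for sensors and 0.09 for receptor subunits and kinases. Some genes stand in several lists, among them sensors that are also further interferon-stimulated genes.

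The libraries held the transcripts of a plasma cell line, with most markers of other cell types low. Of 10 plasma cell and myeloma markers, 4 rose and 4 fell (27.5% and 27.9% of all tested genes), and their summed level was 12011 and 12366 CPM in CELF2 ASO replicates 2 and 1, against 5033 and 4485 CPM in control replicates 2 and 1, most of it from IGLC2. The median log2 difference of these markers between CELF2 ASO replicate 2 and replicate 1 was -0.16, with none at 2-fold. Myeloid and plasmacytoid dendritic cell markers, 9 in all, summed to 2.97 and 2.96 CPM in CELF2 ASO replicates 2 and 1, against 5.33 and 5.22 CPM in control replicates 2 and 1, and LYZ, FCGR3A and IL3RA had no count in any library. T and NK cell markers, 8 in all, summed to 20.6 and 28.1 CPM in CELF2 ASO replicates 2 and 1, against 29.1 and 31.3 CPM in control replicates 2 and 1, mostly from NCAM1. Stromal and epithelial markers, 8 in all, summed to 95.7 and 93.5 CPM in CELF2 ASO replicates 2 and 1, against 124 and 127 CPM in control replicates 2 and 1.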

How the data were processed

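RNA sequencing read counts per gene were deposited by the authors as whole numbers with no normalization that the values show. The submitters' processing notes name the GRCh38 build and the tools STAR 2.7.11b, Salmon 1.10.0, featureCounts 2.0.8 from Subread, and bcl2fastq. Which annotation release, strand setting and rule for multi-mapping reads applied is not given in the sources used here. The labels name both poly(A) selection and ribosomal RNA depletion. The table held 79029 rows, of which 97 named no Ensembl gene and were left out, and symbols were found for 61481. Genes were kept by filterByExpr (minimum count 10, minimum total 15), scaled by TMM and compared in edgeR 4.0.16 (R 4.3.3) by its quasi-likelihood test (two-sided, robust estimation, no covariate), adjusted by the Benjamini-Hochberg method over 19511 genes. A standard error is the absolute log2 fold change divided by the root of its F value. Intervals of ratios are exact conditional binomial intervals.

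Chi-square statistics per degree of freedom between the libraries of a pair were 18.5 for the CELF2 ASO pair over 23956 genes and 3.38 for the control pair over 22288, so neither pair agreed within sampling noise. In simulated counts of 18848 genes the test found 63 of 66 genes changed 4-fold, 41 of 67 changed 2-fold and 24 of 67 changed 1.5-fold, and made 7 false calls. The simulation gave all genes in both groups a common spread. In the data the CELF2 ASO pair varied more than the control pair, so these rates do not describe the 38 genes. The named genes were every one of the 38, CELF2, interferon pathway genes past the threshold or 2-fold apart between the CELF2 ASO libraries, every ligand, receptor, kinase or STAT, and the 10 genes outside the 38 with the largest difference in each direction between the CELF2 ASO libraries. The genes and all lists were chosen with earlier results of these data known. Alternatives were DESeq2 1.42.0, limma-voom (limma 3.58.1), other scalings and filters, a replicate block, other folds and leaving out each library.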

Additional observations from a re-analysis of the deposited data

How the results depend on the processing

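The number of the 38 genes that rose was 3 by the reported test, with RLE scaling, with no filter and by limma-voom, though with no filter the 3 were CMPK2, IFITM3 and IRF9. It was 18 with library totals, which moved the median log2 fold change of all genes by 0.116, 13 with a filter of 1 CPM in 2 libraries, 14 by DESeq2, 5 by limma-voom with a spread per group, and 20 without robust estimation, a setting chosen after seeing the data. Leaving out each library gave 6 to 37 genes that rose and 1 to 6 that fell. The replicate block gave 15. Deviations of same-numbered libraries correlated at 0.0769 over 12788 genes, but the labels do not say whether those libraries were handled together. That value over all genes does not describe the 38, of which 35 were also higher in control replicate 2 than in control replicate 1. The median log2 difference between CELF2 ASO replicates 2 and 1 ran between 1.18 and 1.27 over the scalings, filter and pseudocount run. At 4-fold in place of 2-fold, 2 genes were higher in CELF2 ASO replicate 2 than 1, 11 were above the control mean in replicate 2 and 0 in replicate 1; at 1.5-fold, 11 were above it in replicate 1. The cause of these shifts was not tested.

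Log2 fold changes that changed sign were those of ISG15 under the replicate block (-0.0032), limma-voom (-0.0088) and its spread per group (-0.012), MX1 with library totals (0.016), and BST2 with RLE scaling (-0.020), no filter (-0.051), the replicate block (-0.023), DESeq2 (-0.020), limma-voom (-0.025) and its spread per group (-0.025). Without each library in turn, log2 fold changes ran between -0.85 and 0.82 for ISG15, -1.69 and 0.18 for IFI27, -0.57 and 0.69 for IFI35, -0.51 and 0.67 for IFI44, -0.25 and 1.40 for IFIT1, -0.22 and 1.29 for IFITM1, -0.89 and 0.43 for MX1, -0.076 and 1.75 for MX2, -0.24 and 0.95 for HERC6, -0.15 and 1.67 for USP18, -0.12 and 1.21 for EPSTI1, -0.070 and 1.28 for PARP9, -0.34 and 0.28 for BST2, and -0.66 and 0.032 for IFNAR2. With 2 libraries a group, depth limits IFITM3, IFNB1 and the other interferon genes, which had few counts.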

Other observations

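Genes outside the 38 that stood furthest apart between the CELF2 ASO libraries, among those whose mean log2 CPM was 1 or more, included other interferon-regulated genes. GBP1, a guanylate-binding GTPase, had 10.6 and 1.77 CPM in CELF2 ASO replicates 2 and 1, against 2.13 and 1.64 CPM in control replicates 2 and 1. ETV7, an ETS family factor, had 6.24 and 0.974 CPM in CELF2 ASO replicates 2 and 1, against 1.36 and 1.21 CPM in control replicates 2 and 1. Both were thus near the controls in replicate 1 and above them in replicate 2. TNFSF10, the death ligand TRAIL, had 87.4 and 26 CPM in CELF2 ASO replicates 2 and 1, against 10.1 and 8.32 CPM in control replicates 2 and 1, with both CELF2 ASO libraries above both controls. IGFBP4, which binds insulin-like growth factors, had 52.9 and 12.2 CPM in CELF2 ASO replicates 2 and 1, against 5.37 and 4.50 CPM in control replicates 2 and 1.

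In the other direction, IGFBP3, of the same binding protein family, had 3.39 and 11.7 CPM in CELF2 ASO replicates 2 and 1, against 175 and 166 CPM in control replicates 2 and 1. In that set only MT-RNR1 and MT-RNR2 were further below in CELF2 ASO replicate 2 than in replicate 1. TERT, the telomerase catalytic subunit, had 5.15 and 13.4 CPM in CELF2 ASO replicates 2 and 1, against 27.7 and 26.8 CPM in control replicates 2 and 1. Of the 20 genes furthest above in CELF2 ASO replicate 2 over that range of levels, 10 were among the 38 and 15 were among the 38 or the further interferon-stimulated genes. These differences set 1 library against 1 and have no replicate check.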
